A study of Homo sapiens with 3 samples.

Results

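The CEP genes encode proteins named for their place at the centrosome, and their mRNAs were followed in human lung cancer cells given the microRNA miR-34a or a related RNA. Members were the genes whose current symbol is CEP, a number and at most 1 further letter. In all 34 such genes, from CEP15 to CEP350, had at least 1 probe set that the platform annotation gives to that gene alone. These 34 genes had 103 of the 41091 single-gene probe sets and were 34 of 19775 genes in all. CEP170 was not analysed here because the 3 probe sets found for it also carry the pseudogene CEP170P1, and CEP83 was not analysed here either.

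The cells were of the established line NCI-H1299, established from a lung carcinoma and known to have no working p53. Total RNA from cells grown in RPMI-1640 with serum was put on 3 arrays, of which 1 was mock, 1 miR-34a and 1 ghR-34a. Both RNAs were transfected with a lipid reagent at 25 nM for 48 hours, and ghR-34a is described in the labels only by that name. What mock cells received is not stated, and the design holds no unrelated RNA as a control, so a response to miR-34a and a response to any transfected RNA cannot be told apart. The study asked which mRNAs are lost from cells that received these RNAs.

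A centrosome holds a pair of centrioles, barrels of microtubules that are copied once in each cell cycle, inside a pericentriolar material that anchors and nucleates microtubules. The older, or mother, centriole carries appendages, and in cells that stop dividing it docks at the cell membrane and becomes the base of a cilium, the antenna of the cell. CEP proteins work at each of these steps, as scaffolds of centriole assembly, as links between centrioles, as appendages, as gatekeepers of the cilium and, in the case of CEP55, at the midbody that joins dividing cells. Many cancer lines cycle continuously and use centrosomes mainly to build the spindle.

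The transfected microRNA is known to bind mRNAs through its seed, bases 2 to 8. Its mature sequence in RefSeq (GRCh38.p14, chr1:9151735-9151756, minus strand) is shown with the seed in capitals, because its name gives its sequence; the exact molecules transfected are not described further in the labels.
hsa-miR-34a-5p: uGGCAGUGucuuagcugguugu

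Signals are linear probe set values, which the authors deposited already scaled to 1 trimmed mean per array (500.1). Differences are of log2(signal + 32), so 1 unit is 2-fold, and the added 32 understates the change of low signals. For each gene the brightest probe set on average was used, and the gene was kept if this average reached 68.6, the midpoint of all non-control probe sets. All 34 CEP genes passed, among 11917 genes in all, and so did 85 of their 103 probe sets. The RNA came from whole cultures, in which fewer cells with an mRNA and less of it per cell cannot be told apart. With 1 array per condition no spread between cultures could be estimated and no difference could be tested, so sizes are described and set beside those of all genes. The SD of the log2 difference over 42 spike-in probe sets was 0.13 between miR-34a and mock and 0.16 between ghR-34a and mock, which covers only the steps after the spike-ins were added. The check genes behaved differently from each other. FOSL1 and MET, reported miR-34a targets, were at -2.43 and -1.58 with miR-34a and at -1.52 and -1.54 with ghR-34a, while GAPDH was at -0.022 and -0.11. All 4 epithelial and mesenchymal markers of the line (KRT7, KRT8, KRT18 and VIM) passed the filter, with summed signals of 54241 in mock, 63006 with miR-34a and 55848 with ghR-34a. Of 4 measured markers of multiciliated cells 2 passed, and both were above mock. DNAH5 was at 0.44 with miR-34a and 0.60 with ghR-34a, and DNAI1 at 0.73 and 0.17. All 4 together had summed signals of 286, 380 and 370. Below the filter, FOXJ1, the regulator that defines these cells, had signals of only 36.9, 4.86 and 10.8. RSPH1, also below it, had 23.2, 3.56 and 37.5. The part of these marker differences in the values of cilium genes was not tested. Of 3 lung lineage markers 2 passed, of 3 measured leukocyte markers 1 passed, and of 4 fibroblast and endothelial markers 2 passed. Summed over all measured markers of each list, signals were at most 490 on any array.

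As a family the CEP genes stayed close to mock. With miR-34a, 17 of the 34 were below and 17 above mock, and the median log2 difference was -0.00073, beside 0.038 over all genes. None was 2-fold lower or 2-fold higher, where 1.14% and 1.22% of all genes were. At a looser size of 1.5-fold, 0 were lower and 2, CEP162 and CEP89, were higher, which is 5.88% of the family, beside 5.31% lower and 6.66% higher among all genes. The share that was higher was thus near the background.

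With ghR-34a, 18 CEP genes were below and 16 above mock, with a median of -0.030 beside 0.0096 over all genes. Again none was 2-fold lower (0.571% of all genes) or 2-fold higher (0.453%). At 1.5-fold, CEP170B was lower and CEP112 and CEP290 were higher, beside 4.06% lower and 3.19% higher among all genes. CEP290 came closest to 2-fold, at 1.95-fold. The quartiles of the family, -0.16 and 0.20, were also near those of all genes, -0.17 and 0.18. Both comparisons use the same mock array, so an unusual mock value would enter both.

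**Figure D1:**
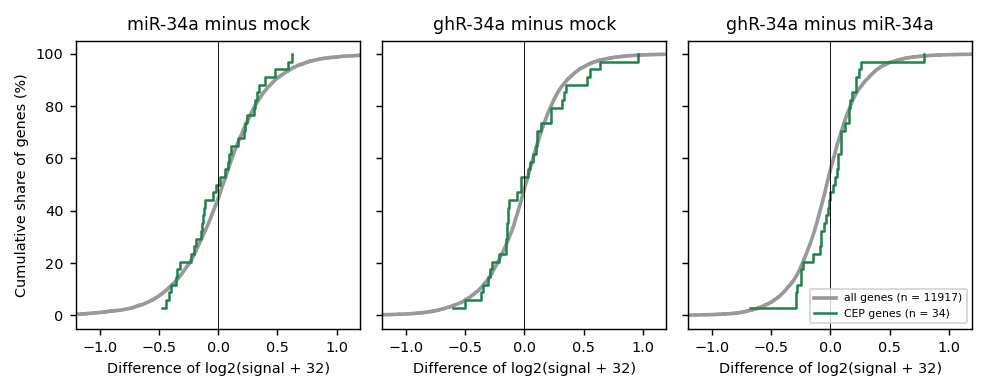
Cumulative share of genes (y axis, %) by difference of log2(signal + 32) (x axis) in each of the 3 comparisons, for the 34 CEP genes (green) and all 11917 genes above the filter (grey). The green curves lie on or near the grey ones, and the single large step at the right in both ghR-34a panels is CEP290, at 0.96 and 0.79.

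**Figure D2:**
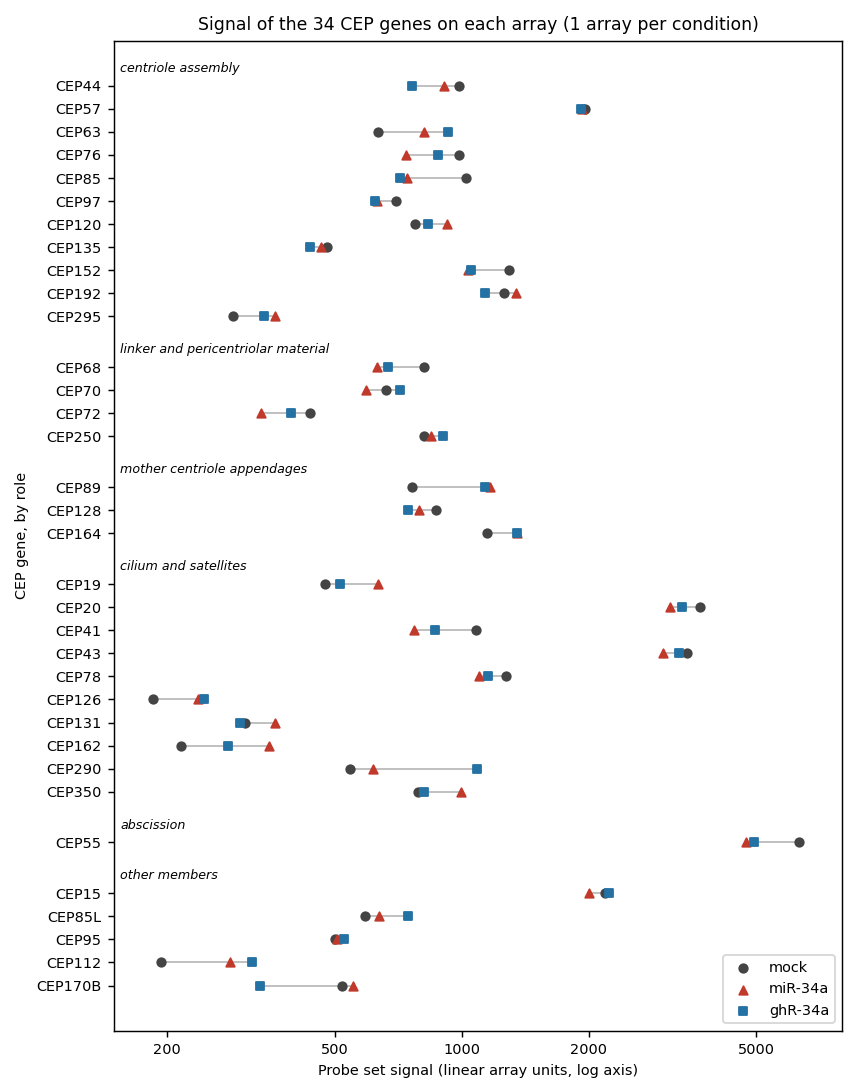
Signal of each of the 34 CEP genes on the mock (grey circle), miR-34a (red triangle) and ghR-34a (blue square) arrays, on a log axis, grouped by role. The lines join the lowest and highest of the 3 arrays, and the widest is that of CEP290, from 545 to 1090.

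Of the mother centriole appendage genes, CEP89 and CEP164 were above mock on all their probe sets and CEP128 was not. CEP89 is a component of the distal appendages, the blades that dock the mother centriole to the membrane. Its signal was 765 in mock, 1169 with miR-34a and 1139 with ghR-34a, so both transfectant arrays were above mock, by 0.59 (1.51-fold) and 0.56 (1.47-fold). All 6 of its probe sets passed the filter. Every one of these was above mock in both arrays, with values from 0.52 to 0.88 for miR-34a and from 0.32 to 0.56 for ghR-34a. Among all genes, 6.44% were at or above the difference of CEP89 with miR-34a and 3.73% with ghR-34a, so its size alone is not rare on these arrays. The probe sets share the same 3 RNAs and speak for the measurement, not for other cultures.

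CEP164, a distal appendage protein that recruits the kinase TTBK2 at the start of cilium formation, pointed the same way with smaller values. Its signal was 1152 in mock, 1354 with miR-34a and 1353 with ghR-34a, a difference of 0.23 in each. Both of its other probe sets were further above mock, and over all 3 the values ran from 0.23 to 0.75 with miR-34a and from 0.23 to 0.39 with ghR-34a. CEP128, which belongs to the subdistal appendages that anchor microtubules, did not share this. It had 870 in mock, 791 with miR-34a and 746 with ghR-34a, differences of -0.13 and -0.21, and its 5 probe sets lay on both sides of mock, from -0.36 to 0.14 and from -0.49 to 0.17.

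Genes of centriole assembly stood on both sides of mock. Of 11 such genes, 7 were below mock with miR-34a and 8 with ghR-34a, beside 44.8% and 48.2% of all genes, with medians of -0.045 and -0.14. These counts use 1 probe set per gene. They include CEP44, CEP57, CEP85 and CEP97, whose probe sets lay on both sides of mock with ghR-34a, as did those of CEP57 with miR-34a. CEP152, the scaffold that recruits the kinase PLK4 to the site of a new centriole, had 1298 in mock, 1034 with miR-34a and 1053 with ghR-34a. That is -0.32 and -0.29, and its 3 probe sets above the filter were all below mock, down to -0.52 with miR-34a and -0.69 with ghR-34a. CEP63, the partner of CEP152 in that ring, was on the other side, with 635 in mock, 815 with miR-34a and 929 with ghR-34a, or 0.35 and 0.53. Its second probe set above the filter was also higher, at 0.21 and 0.41. A dim one, with a mock signal of only 58.3, was at -0.67 and -0.68, and with all probe sets averaged CEP63 was at -0.038 with miR-34a. The paired scaffolds therefore stood on opposite sides of mock on their brighter probe sets.

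CEP85, which binds the assembly factor STIL and restrains the kinase NEK2, had the lowest values of the assembly group. Its signal was 1023 in mock, 744 with miR-34a and 715 with ghR-34a, or -0.44 and -0.50. Its second probe set did not share the difference, with -0.024 and 0.13, and the averaged value was -0.23 with miR-34a and -0.18 with ghR-34a. CEP76, which limits centriole duplication to once per cycle, went from 986 in mock to 738 and 881, or -0.40 and -0.16, and its second probe set was at -0.016 and -0.19. CEP44, a protein of the centriole lumen, had 988, 909 and 762, or -0.12 and -0.36. The second probe set had the opposite sign with ghR-34a, at 0.39, so no direction can be given for it.

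The rest of the assembly group moved little or to the higher side. CEP295, needed for a new centriole to mature into a centrosome, had 287 in mock, 361 with miR-34a and 340 with ghR-34a, or 0.30 and 0.22, and all 3 of its probe sets above the filter were higher in both arrays. CEP120, which promotes centriole elongation, was at 0.25 and 0.10 with its second probe set at 0.34 and 0.21. CEP192, a scaffold of the pericentriolar material that also recruits PLK4, was at 0.092 and -0.14 on its single probe set. CEP97, which caps centrioles together with CCP110, was at -0.14 and -0.16, with 1 of its 3 probe sets at 0.044 with ghR-34a. CEP135, a link between the central cartwheel and the microtubules, was at -0.045 and -0.13. CEP57, a pericentriolar scaffold whose loss causes chromosome missegregation, was close to mock in both arrays. Its signals were 1959, 1935 and 1922, and its 5 probe sets lay between -0.017 and 0.15 with miR-34a and between -0.20 and 0.071 with ghR-34a.

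The linker and pericentriolar genes also showed small differences. CEP68, part of the fibres that tie the centrioles of an interphase cell together, had 816 in mock, 629 with miR-34a and 671 with ghR-34a, or -0.36 and -0.27. Further probe sets that passed numbered 3, of which 2 were lower and 1 was slightly higher in each array. CEP250, which anchors those fibres at the centriole end, was at 0.053 and 0.14, with probe sets on both sides of mock. CEP72, a satellite protein that helps to recruit pericentriolar material, was at -0.35 and -0.14 on 1 probe set. CEP70, which organises microtubules through gamma-tubulin, was at -0.15 and 0.11, and 1 of its 5 probe sets reached 0.40 with miR-34a. On the probe set used, all 4 of these genes had a higher signal with ghR-34a than with miR-34a, by 0.089 to 0.26. Among all genes 44.4% did. With averaged probe sets CEP68, CEP70 and CEP250 were lower instead, at -0.026, -0.017 and -0.051.

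**Figure D3:**
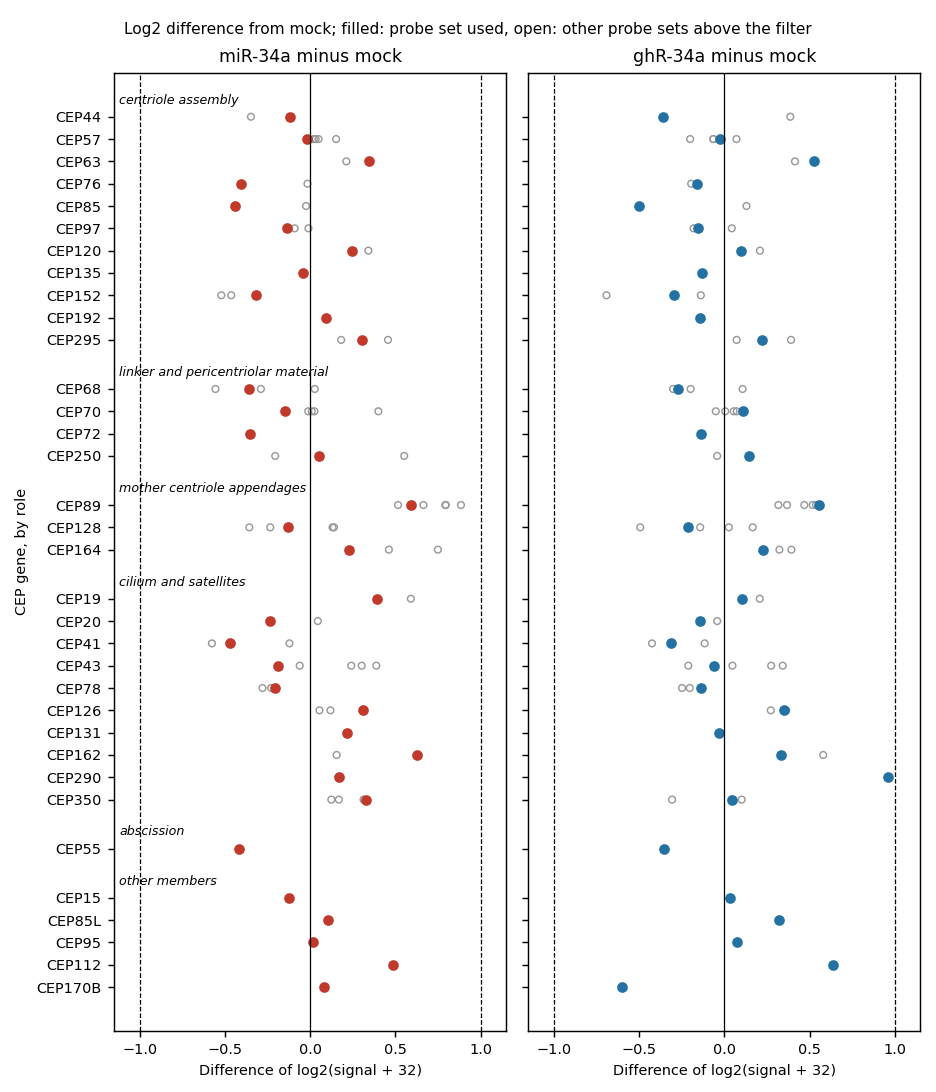
Difference of log2(signal + 32) from mock for each of the 34 CEP genes with miR-34a (left) and ghR-34a (right), by role; filled points are the probe set used for the gene, open points further probe sets that passed the filter, and dashed lines mark 2-fold. No filled point passes a dashed line, and CEP89 and CEP164 are the appendage genes with all points to the right of 0.

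Cilium and satellite genes held the largest single difference of the family against mock. CEP290 is a gatekeeper of the transition zone, the region between the centriole and the cilium proper, and its loss causes several ciliopathies. Its signal was 545 in mock, 615 with miR-34a and 1090 with ghR-34a, so that only the ghR-34a array stood clear of the other 2. The differences from mock were 0.17 and 0.96, and 0.55% of all genes were at or above the latter. This rests on 1 probe set. The other 2 probe sets of CEP290 were below the filter, with signals of 27.9 to 66.6, and were at 0.72 and -0.22 with miR-34a and at 0.43 and -0.012 with ghR-34a. Without probe sets of the _s_at and _x_at kinds, which can cross-react, the value for ghR-34a was thus -0.012.

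CEP162, which helps to assemble the transition zone on the axonemal microtubules, had 216 in mock, 350 with miR-34a and 280 with ghR-34a, or 0.62 (1.54-fold) and 0.33. Its second probe set was at 0.16 and 0.58, so both were higher in both arrays but in a different order. CEP19, which brings the GTPase RABL2 to the mother centriole, had 475, 634 and 514, or 0.39 and 0.10, with its second probe set at 0.59 and 0.21. CEP126, a satellite protein, had 185, 237 and 245, or 0.31 and 0.35, and all 3 of its probe sets were higher in both arrays. CEP350, which works with CEP19 and CEP43 at the mother centriole, was at 0.33 and 0.048. All 4 of its probe sets were above mock with miR-34a, by 0.12 to 0.33. With ghR-34a they lay on both sides of mock, from -0.31 to 0.10, and the averaged value was -0.028. CEP131, another satellite protein, was at 0.22 and -0.032 on a single probe set.

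Several cilium genes were on the lower side. CEP41, which is needed to attach glutamate chains to ciliary tubulin, had 1081 in mock, 771 with miR-34a and 866 with ghR-34a, or -0.47 and -0.31. A second bright probe set of CEP41 agreed in direction and size, with 723, 474 and 531. One more above the filter was at -0.12 in both. With the 3 dim probe sets averaged in, CEP41 was at -0.055 and -0.080. CEP78, a regulator of ciliary length, had 1273, 1101 and 1156, or -0.20 and -0.14, and all 3 of its probe sets were lower in both arrays. CEP20, a satellite protein related to CEP43, was at -0.23 and -0.14, with a second probe set at 0.045 and -0.042. CEP43, an anchor for CEP19 and CEP350, could not be given a direction. Its brightest probe set had 3429, 3006 and 3286, or -0.19 and -0.061, but a second had 2537, 3328 and 3076, or 0.39 and 0.27, and another was at 0.30 and 0.34.

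CEP55 differs from the rest of the family in its work. It gathers at the midbody in the last step of division and recruits ALIX and TSG101, which bring in the ESCRT machinery that cuts the bridge between daughter cells, and its mRNA is known to peak in G2 and mitosis. Its signal was 6313 in mock, 4724 with miR-34a and 4936 with ghR-34a, so both transfectant arrays were below mock and close to each other. The differences were -0.42 (1.33-fold lower) and -0.35 (1.28-fold lower), on a single probe set. Among all genes, 10.6% were at or below the miR-34a value and 11.2% at or below the ghR-34a value.

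The 5 members whose work is less well defined, or lies elsewhere, included both directions. CEP112 had 193 in mock, 283 with miR-34a and 319 with ghR-34a, or 0.48 and 0.64 (1.56-fold). It rests on 1 probe set above the filter, and with 2 dim ones averaged in it was at -0.18 with miR-34a. CEP170B, a relative of the subdistal appendage protein CEP170, had 521, 552 and 333, or 0.079 and -0.60 (1.52-fold lower), so that the ghR-34a array alone was low. Its only probe set is of the _x_at kind. CEP85L, a relative of CEP85 needed in migrating neurons, was at 0.10 and 0.32. CEP15 was at -0.12 and 0.032 and CEP95 at 0.016 and 0.072.

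Probe sets of one gene gave a check within the arrays. Of the 34 members, 23 had at least 2 probe sets above the filter. The 2 brightest had the same sign in 19 of 23 with miR-34a and in 20 of 23 with ghR-34a. Where the brighter one was at least 0.3 from mock, the signs matched in 12 of 12 members with miR-34a and in 5 of 7 with ghR-34a, the exceptions being CEP85 and CEP44. Of these 23 members, all probe sets above the filter lay above mock in 9 and below it in 7 with miR-34a, against 8 and 5 with ghR-34a. Such counts were not made over all genes, so whether this agreement is usual on these arrays is not known.

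The 2 RNAs were also compared with each other, at equal dose and time. Here 16 CEP genes were lower and 18 higher with ghR-34a than with miR-34a, with a median of 0.035 beside -0.031 over all genes. None reached 2-fold in either direction, where 0.344% of all genes were 2-fold lower and 0.327% 2-fold higher. At 1.5-fold, CEP170B was lower (-0.68, 1.60-fold) and CEP290 higher (0.79, 1.73-fold), beside 3.27% lower and 2.24% higher among all genes. All other members lay between -0.29 (CEP162) and 0.26 (CEP70), which covers 32 of the 34. CEP19 (-0.29) stood next to CEP162 on the lower side, and CEP76 (0.25) next to CEP70 on the higher side. For CEP162 and CEP70 the sign was the opposite with averaged probe sets, at 0.067 and -0.017. The second probe set signs matched in only 14 of 23 members here. The distal appendage genes were near 0 on the probe set used, with CEP89 at -0.037 and CEP164 at -0.00059. However, the other 5 probe sets of CEP89 were all lower with ghR-34a, by 0.20 to 0.42 in size. Both other probe sets of CEP164 were lower too, at -0.14 and -0.36.

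Promoters are shown for 4 members picked after their values were seen, CEP89 and CEP164 as genes above mock on all probe sets, CEP55 and CEP152 as genes below it. Each is the 250 bases upstream of the gene start in RefSeq (GRCh38.p14), read 5′ to 3′ on the strand of the gene. Capitals mark any of 4 motifs on either strand. These are the CHR (TTTGAA), bound by repressor and activator complexes of cell cycle genes, the CCAAT box (CCAAT), bound by NF-Y, the E2F site (TTTGGCGC or TTTCCCGC), and a part of the X-box (GTTGCC), bound by the RFX factors of ciliary genes.
CEP89, chr19:32971959-32972208, minus strand: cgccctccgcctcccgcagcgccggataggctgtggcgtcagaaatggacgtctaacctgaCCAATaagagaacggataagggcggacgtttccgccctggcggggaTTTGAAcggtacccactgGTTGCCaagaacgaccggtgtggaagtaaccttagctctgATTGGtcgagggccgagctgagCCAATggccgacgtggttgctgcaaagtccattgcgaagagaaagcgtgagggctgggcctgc
CEP164, chr11:117327604-117327853, plus strand: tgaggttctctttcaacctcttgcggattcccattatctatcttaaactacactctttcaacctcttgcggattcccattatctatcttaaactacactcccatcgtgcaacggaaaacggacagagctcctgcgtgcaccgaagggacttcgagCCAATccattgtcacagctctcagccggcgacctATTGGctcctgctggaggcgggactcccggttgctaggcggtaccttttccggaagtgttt
CEP55, chr10:93496362-93496611, plus strand: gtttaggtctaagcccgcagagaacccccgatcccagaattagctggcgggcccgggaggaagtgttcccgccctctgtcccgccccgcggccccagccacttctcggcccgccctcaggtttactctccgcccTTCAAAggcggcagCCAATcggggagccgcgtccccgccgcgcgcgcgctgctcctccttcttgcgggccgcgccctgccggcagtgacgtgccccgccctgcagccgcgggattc
CEP152, chr15:48811070-48811319, minus strand: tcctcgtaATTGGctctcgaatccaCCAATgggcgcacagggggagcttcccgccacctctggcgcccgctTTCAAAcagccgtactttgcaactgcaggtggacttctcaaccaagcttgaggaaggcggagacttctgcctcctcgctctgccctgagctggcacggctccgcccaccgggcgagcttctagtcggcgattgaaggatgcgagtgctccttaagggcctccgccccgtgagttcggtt

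In these windows CEP89 held a CHR at 143 bases upstream, the X-box letters at 125 and CCAAT boxes at 189, 85 and 63. CEP164 held CCAAT boxes at 95 and 61. CEP55 held a CHR at 116 and a CCAAT box at 102, and CEP152 a CHR at 179 and CCAAT boxes at 242 and 225. No motif match overlapped another in these windows. The E2F letters were in none of the 4. Both a gene above mock and genes below it thus carried CHR and CCAAT letters. Over full windows of 300 bases, which add 50 bases after the start, 30 of the 34 members had 38 windows. The CHR was in 39.5% of these, beside 15.2% of all 35116 windows and 10.6% of the 14184 windows of genes above the filter. The X-box letters were in 31.6%, beside 12.2% and 12.8%. The CCAAT box was in 19 of the 38, beside 34.6% and 35.05%, and the E2F letters in 5.26%, beside 2.27% and 3.36%. These shares describe letters only, and windows of 1 gene can overlap.

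Other genes of the centrosome were set beside the family through 6 lists from general knowledge. Of 26 genes of centriole duplication and the centriole core, 12 were below mock with miR-34a and 10 with ghR-34a. Among all genes 44.8% and 48.2% were. The medians of the list were 0.065 and 0.063. PLK4, the kinase that starts centriole duplication and acts on the CEP152 scaffold, had 1691 in mock, 1028 with miR-34a and 1172 with ghR-34a, or -0.70 and -0.52, and both of its other probe sets were lower as well. Without probe sets that can cross-react PLK4 was at -1.06 and -0.22. CETN2, a centrin of the centriole lumen, had 1765, 3625 and 2914, or 1.02 and 0.71, and was just short of 2-fold with miR-34a under median centring (0.96) and with a pseudocount of 100 (0.998). TEDC2, a protein of the centriole wall, was at -0.72 and -0.22. In this list CETN2 alone was 2-fold higher with miR-34a, which is 3.85% of the list beside 1.22% of all genes. None was 2-fold higher with ghR-34a (0.453% of all genes), and none was 2-fold lower with miR-34a (1.14%) or ghR-34a (0.571%).

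The list of appendage, linker and satellite genes stood on the higher side. Of its 20 genes above the filter, 14 were above mock with miR-34a and 17 with ghR-34a, beside 55.2% and 51.8% of all genes. These counts use 1 probe set per gene. No other probe set of FBF1, KIZ or BBS4 above the filter was above mock with miR-34a, and none of SCLT1 or BBS4 with ghR-34a. Medians were 0.12 and 0.19. ANKRD26, a distal appendage protein, had 151 in mock, 344 with miR-34a and 291 with ghR-34a, or 1.04 and 0.82. That difference was 0.31 and 0.19 without probe sets that can cross-react, and it was short of 2-fold with miR-34a under median centring (0.98) and a pseudocount of 100 (0.82). PIBF1, also called CEP90, a satellite protein that helps to build the distal appendages, had 477, 796 and 838, or 0.70 and 0.77. SDCCAG8 was at 0.29 and 0.47, but at -0.058 with miR-34a when its probe sets were averaged. FBF1, another distal appendage protein, was at 0.021 and -0.42, and SCLT1 at -0.039 and 0.21. On the probe set used, the distal appendage genes thus did not all stand where CEP89 and CEP164 did.

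Of 21 pericentriolar and gamma-tubulin genes, 11 were below mock with miR-34a and 13 with ghR-34a, beside 44.8% and 48.2% of all genes. Medians were -0.020 and -0.057. None was 2-fold lower, where 1.14% of all genes were with miR-34a and 0.571% with ghR-34a. None was 2-fold higher, where 1.22% and 0.453% of all genes were. AKAP9, a large scaffold of centrosome and Golgi, was the highest at 0.81 and 0.87, but at 0.23 and 0.57 without probe sets that can cross-react. TUBG2, a second gamma-tubulin, was at 0.50 and 0.31, and HAUS7, of the augmin complex, at -0.55 and -0.42. Of 10 centrosome kinases and partners, AURKA, PLK1, NEK2, TPX2 and BORA were below mock in both arrays on the probe set used. The 1 other probe set of NEK2 above the filter was not below mock with ghR-34a, where NEK2 was at -0.056. For AURKA with miR-34a, only 1 of 2 other probe sets was below mock. PLK1 had 456, 290 and 287, or -0.60 and -0.61, TPX2 was at -0.48 in both and BORA, which activates Aurora A, at -0.90 and -0.31. PLK2, PLK3, NEK7 and NEK9 were above mock in both, with PLK2 and PLK3 at 0.37 and 0.39 with miR-34a and at 0.34 and 0.37 with ghR-34a. The medians of the list were -0.047 and -0.039. None was at 2-fold, where the shares of all genes were those just given.

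The 14 measured genes of cytokinetic abscission, the step in which CEP55 acts, stood on both sides of mock. KIF20A and KIF4A, motors of the central spindle, were at -0.60 each with miR-34a and at -0.46 each with ghR-34a, and VPS4A, an ATPase that remodels ESCRT filaments, at -0.78 and -0.69. VPS4B was at 0.49 and 0.28, TSG101, a direct partner of CEP55, at 0.25 and 0.23, and CHMP4B at 0.11 and 0.16. The 1 other probe set of CHMP4B above the filter did not share its sign in either array. Medians were -0.020 and 0.031, and 7 and 6 genes were below mock, beside 44.8% and 48.2% of all genes. None was at 2-fold, where 1.14% of all genes were lower and 1.22% higher with miR-34a, and 0.571% and 0.453% with ghR-34a. Of 6 measured genes that amplify centrioles in multiciliated cells only 2 passed the filter, CCNO at 0.27 and -0.23 and TP73 at 0.58 and 0.050. DEUP1, the deuterosome scaffold that is a relative of CEP63, had signals of only 19.4, 3.92 and 16.04.

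**Figure D4:**
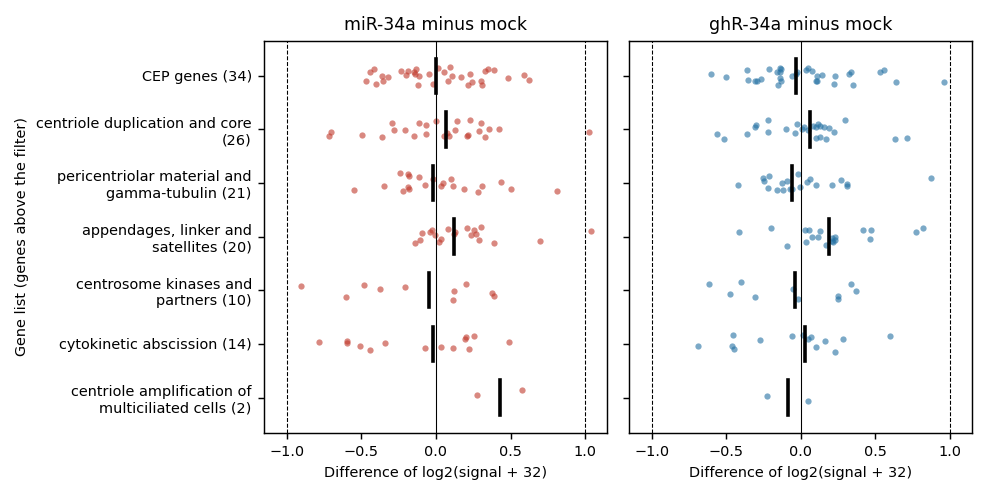
Difference of log2(signal + 32) from mock (x axis) of each gene above the filter in the CEP family and 6 other lists, with miR-34a (left, red) and ghR-34a (right, blue); points are genes, spread vertically at random, thick bars are medians and dashed lines mark 2-fold. All medians of lists with 10 or more genes lie within 0.2 of mock, and the list of appendages, linker and satellites is furthest to the right among them.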

How the data were processed

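Total RNA of 3 NCI-H1299 cultures was measured on 1-colour expression arrays from 250 ng, per the labels' protocols. On each array the authors deposited a linear intensity for 54675 probe sets, made with Affymetrix Expression Console per the submitters' processing notes. The algorithm, its version, the background correction and detection calls are not given in the sources used here, and background handling affects low signals most. Each deposited intensity column had a 2% trimmed mean of 500.1, so no further scaling was applied.

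Python 3.11.15 with numpy 2.4.6 and pandas 2.3.3 was used, with matplotlib 3.10.9 for figures. The 62 control probe sets were set aside and log2(signal + 32) was computed. Of the other probe sets, 41091 had a single gene symbol in the platform annotation, 1801 had several and were not used, and 11721 are unnamed here. A match by Entrez identifier to the RefSeq table of GRCh38.p14 was found for 41037, and 0 symbols needed an update. Differences were counted at 2-fold and 1.5-fold with no test, and the number of arrays limits the precision. Members named in full were those at 2-fold in any comparison, the 3 with the largest difference each way in each comparison, and CEP55; every other member is given in brief, and of each other list up to 3 genes were to be named, with further genes chosen after their values were seen. The members, roles, lists and motifs were chosen with earlier results of these data known.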

Additional observations from a re-analysis of the deposited data

How the results depend on the processing

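The alternatives were no filter, a filter at the upper quartile, pseudocounts of 1 and 100, quantile normalization, median centring, averaging a gene over its probe sets, dropping _s_at and _x_at probe sets, and size rules of 1.5-fold and 3-fold. For the other lists they were chosen after seeing the data. The counts of CEP genes at 2-fold were 0 in both directions in all 3 comparisons under each of these except the 1.5-fold rule. That rule gave 2 higher with miR-34a, 1 lower and 2 higher with ghR-34a, and 1 lower and 1 higher between the RNAs. The median of the family ranged from -0.080 to 0.079 with miR-34a, from -0.096 to 0.032 with ghR-34a and from -0.025 to 0.12 between the RNAs. These ranges include 0, so no direction of the family can be given. The sign of a member was the same under all settings run for 25 of 34 with miR-34a, 27 with ghR-34a and 18 between the RNAs. The cause of the changes of sign was not tested. No paired analysis was possible because each condition has 1 array.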
